A study of Arabidopsis thaliana with 9 samples.

Results

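Kinesins are motor proteins that use ATP to step along, or in some families to take apart, microtubules. Plants carry large kinesin families that serve the spindle, the division plane, the phragmoplast (the microtubule array that builds the new cell plate), organelle movement, wall deposition and root hair form. All 39 genes described here carry an annotation that contains the words kinesin or microtubule motor and reach a summed count of at least 90 over 9 libraries; the deposited gene table holds 27218 genes in all. A further 5 genes with such an annotation lay below 90. Just inside that threshold were AT2G22610 with 90 counts and ATK5 with 104, and just outside was AT4G24170 with 81.

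The data are RNA-seq libraries of whole Arabidopsis thaliana seedlings aged 2 weeks, grown on MS medium under long days, and every one of them was heated to 45 °C for 3 h before RNA extraction; no unheated group is analysed here. There were 3 libraries each of wild type (WT), of SR45a-1a overexpression plants (SR45a-1a-OE) and of the sr45a mutant. SR45a is a serine/arginine-rich splicing factor, and SR45a-1a is a variant of its transcript. The promoter behind the overexpression, the sr45a allele, and whether the numbered libraries are separate lines, plants or cultures are not given in the sources used here, so each p-value rests on the scatter of these libraries alone, and that scatter may be technical.

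Total gene counts ran from 18036195 to 21864604 per library. SR45a itself checked the labels: in counts scaled to library size (CPM, mean ± SD, n = 3) it stood at 418 ± 16.0 for wild type, at 1094 ± 81.6 for the overexpressor, and at 4.57 ± 2.69 for the mutant. On the first principal component, SR45a-1a-OE replicate 3 (16.2, against 48.3 and 47.0) and sr45a replicate 3 (4.70, against -25.3 and -22.2) stood apart from their groups. All 3 leaf and all 4 root marker genes passed the filter on low counts, whereas only 1 of 5 flower and pollen markers did. Fewer cells of a type and less RNA per cell cannot be told apart in these whole seedlings.

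All 39 kinesin genes passed the filter on low counts, and the positions of all 39 in the deposited table equal those of the TAIR10.1 assembly. A RefSeq record naming a kinesin motor domain exists for 35 of them. The other four, AT1G52320, AT4G24175, AT4G26410 and AT5G33300, match the annotation words without such a record. The codons of the ATP-binding P-loop, the nucleotide pocket shared by kinesin motors, were found in the coding sequence of 32. They are shown here for members that fell in SR45a-1a-OE, because the pocket's ending is shared across 3 kinesin families while the bases before it differ. The sequences are RefSeq's, on TAIR10.1, and capitals mark the codons of glycine, lysine and threonine at the end of the pocket. Those codons are spelled alike in the 3 kinesin-7 genes shown and otherwise in ATK2, ARK2 and MRH2. AT5G66310, the other kinesin-7 gene that fell, spells the last of these codons differently, so the spelling is not common to the family.
AT4G39050, chr4:18194337-18194360, plus strand: ggtgttactagcagtGGAAAGACA
AT2G21380, chr2:9142764-9142787, plus strand: ggtgttacaagcagtGGAAAGACA
AT4G38950, chr4:18157834-18157857, minus strand: ggccagacgagtagtGGAAAGACA
ATK2, chr4:13616281-13616304, minus strand: ggacaaacaggatctGGAAAAACT
ARK2, chr1:326371-326394, plus strand: ggtcagactggtactGGCAAGACT
MRH2, chr3:20331761-20331784, plus strand: ggtcaaaccggcacaGGTAAAACT

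Per transcript length, the most abundant member was AT4G26410, annotated as a chromosome-associated kinesin, with a mean of 55.8 FPKM (sequenced fragments corrected for the length of the gene and the size of the library) over the 9 libraries. It was followed by the kinesin-7 gene AT2G21380 at 15.5 FPKM, AT1G52320 at 12.8 FPKM, and the kinesin-7 genes AT4G39050 at 12.1 FPKM and AT2G21300 at 11.1 FPKM. The lowest was AT2G22610, a kinesin-14 gene, at 0.134 FPKM. AT4G26410 and AT1G52320, the pair without a motor domain record among these 5, did not pass the test in any comparison.

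Kinesin genes together took a smaller share of counts in both altered genotypes than in WT. That share was 0.0819%, 0.0733% and 0.0675% in the WT libraries. It was 0.0545%, 0.0635% and 0.0607% in SR45a-1a-OE, and 0.0652%, 0.0647% and 0.0624% for the mutant. Every WT library lay above every other library, and the altered genotypes overlapped each other.

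Comparing SR45a-1a-OE with WT asks what more of this SR45a variant does in heated seedlings. Among the 39 kinesin genes 10 fell and 0 rose (edgeR quasi-likelihood test, Benjamini-Hochberg adjusted p under 0.05 over 20103 genes), where 8.59% of all genes fell and 6.76% rose; at an unadjusted p under 0.05, 18 members were lower and 1 higher, where 32% of all genes lay under that p in either direction. DESeq2 called 12 members lower and 0 higher, and 3706 of 20740 genes in all. The genes that fell came from the kinesin-4, kinesin-7, kinesin-13, kinesin-14 and armadillo-repeat families. Their log2 fold changes lay between -0.34 and -0.92, so the changes were moderate. Of all 39 members, 31 had a log2 fold change below 0, as had 9712 of all 20103 genes tested. The median of the 39 members was -0.34, against 0.01 over all genes tested. The groups did not overlap, with SR45a-1a-OE lower, for 18 members (18.7% of all genes), and with SR45a-1a-OE higher for 1 member (16.9% of all genes).

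**Figure D1:**
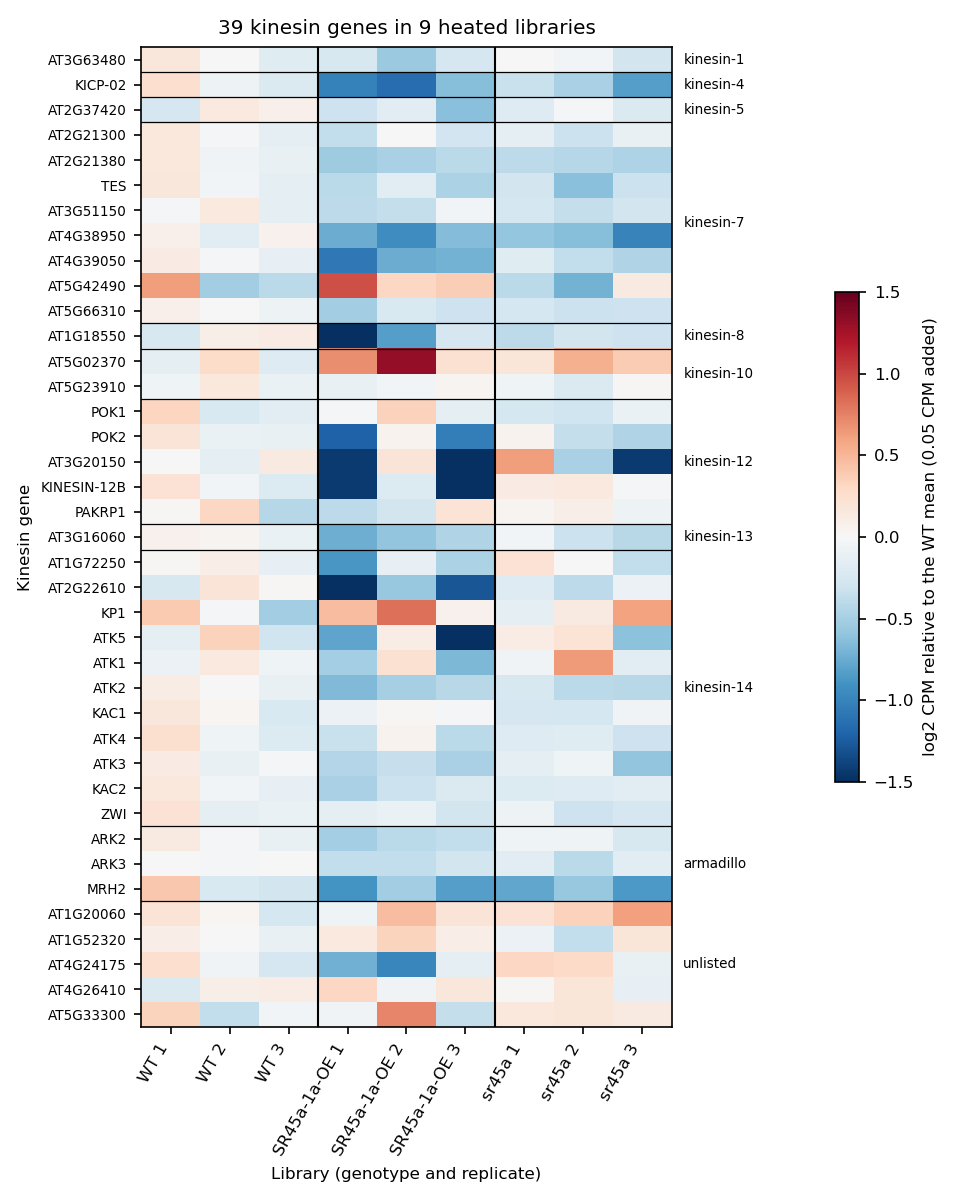
Level of each kinesin gene (rows, ordered by family, with families named at the right) in each of the 9 libraries (columns), as log2 CPM relative to the WT mean of that gene; blue is lower and red is higher, and colours saturate at 1.5. In SR45a-1a-OE 31 of 39 genes had a fitted log2 fold change below 0 against WT, and in sr45a 30 of 39. Over all 20103 genes tested, these counts were 9712 in SR45a-1a-OE and 10067 in sr45a.

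In kinesin-7, a family that is large in plants, 4 of the 8 members described here fell. The kinesin family list, which also holds genes described in other words, has 14 tested kinesin-7 genes. Of those 14 genes 5 fell, where 8.59% of all genes fell. AT4G39050 read 64.9, 59.0 and 54.8 CPM in WT, 28.2, 35.5 and 36.3 CPM in SR45a-1a-OE, and in sr45a 52.6, 46.2 and 43.5 CPM. The SR45a-1a-OE libraries were the lowest and overlapped neither other genotype, with a log2 fold change against WT of -0.84 ± 0.12 (SE, adjusted p = 0.00335). Its closest relative AT2G21380, 80.4% identical over 3212 aligned bases of coding sequence, read 81.4, 70.5 and 67.5 CPM in WT, 50.5, 52.3 and 55.1 CPM in SR45a-1a-OE, and in sr45a 55.7, 54.5 and 53.3 CPM. All WT libraries were above all others, while the altered genotypes overlapped. Its log2 fold change in SR45a-1a-OE was -0.48 ± 0.09 (adjusted p = 0.00937).

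The kinesin-7 gene AT4G38950 was lower in level, at 8.06, 6.80 and 7.99 CPM in WT, 4.52, 3.98 and 4.83 CPM in SR45a-1a-OE, and in sr45a 5.09, 4.87 and 3.78 CPM. Again every WT library was the highest, and the log2 fold change in SR45a-1a-OE was -0.78 ± 0.16 (adjusted p = 0.0110). AT5G66310 read 44.6, 42.0 and 39.8 CPM in WT, 29.3, 36.0 and 33.9 CPM in SR45a-1a-OE, and in sr45a 35.1, 33.7 and 34.0 CPM. WT was above both other genotypes without overlap, and the change in SR45a-1a-OE was -0.35 ± 0.10 (adjusted p = 0.0337). The abundant kinesin-7 gene AT2G21300, 78.7% identical to AT4G38950, overlapped between WT and SR45a-1a-OE (log2 fold change -0.21, adjusted p = 0.261). The scarcest kinesin-7 gene, AT5G42490, had a log2 fold change of 0.60 (adjusted p = 0.314).

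All 3 armadillo-repeat kinesins fell in SR45a-1a-OE. This plant family joins a kinesin motor to armadillo repeats, and MRH2 is known for shaping root hairs. ARK2 read 28.9, 25.7 and 24.4 CPM in WT, 18.5, 19.8 and 20.4 CPM in SR45a-1a-OE, and in sr45a 25.2, 25.1 and 22.3 CPM. SR45a-1a-OE was lower than both other genotypes without overlap, and its log2 fold change against WT was -0.43 ± 0.10 (adjusted p = 0.0191). ARK3 read 31.0, 30.5 and 30.8 CPM in WT, 23.9, 23.8 and 25.5 CPM in SR45a-1a-OE, and in sr45a 27.6, 23.2 and 27.5 CPM (SR45a-1a-OE against WT -0.34 ± 0.10, adjusted p = 0.0365). WT was the highest genotype for ARK3, and the altered genotypes overlapped. MRH2, the least abundant of the family, read 5.94, 3.82 and 3.72 CPM in WT, 2.39, 3.10 and 2.51 CPM in SR45a-1a-OE, and in sr45a 2.59, 3.02 and 2.44 CPM. WT replicate 1 was well above the other WT libraries; the change in SR45a-1a-OE was -0.75 ± 0.22 (adjusted p = 0.0427). The root markers PRP3 and PHT1;1 also fell in SR45a-1a-OE, 2 of 4 root markers with a list median log2 fold change of -0.42 and a range of -0.95 to 0.55. Their part in the MRH2 result was not tested.

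Outside these families, 3 more kinesin genes fell. KICP-02, a kinesin-4 gene whose family includes FRA1, a motor of wall deposition, read 23.8, 19.0 and 17.2 CPM in WT, 9.89, 9.07 and 12.8 CPM in SR45a-1a-OE, and in sr45a 15.8, 14.2 and 11.3 CPM. Among the members that passed its drop was the largest, -0.92 ± 0.17 (adjusted p = 0.00783), with every WT library above every SR45a-1a-OE library. AT3G16060 belongs to kinesin-13, a class known in animals for taking microtubules apart. It read 26.1, 25.8 and 23.3 CPM in WT, 15.0, 16.7 and 18.4 CPM in SR45a-1a-OE, and in sr45a 24.3, 20.1 and 18.8 CPM, with a change of -0.59 ± 0.12 (adjusted p = 0.0110). SR45a-1a-OE lay below both other genotypes without overlap. ATK2 is a kinesin-14, the family that steps toward microtubule minus ends. Of 19 tested kinesin-14 genes of the family list 2 fell, and among the 11 members ATK2 alone passed. It read 38.0, 35.2 and 32.6 CPM in WT, 22.3, 24.9 and 26.4 CPM in SR45a-1a-OE, and in sr45a 29.9, 26.6 and 26.4 CPM, with a change of -0.53 ± 0.10 (adjusted p = 0.00884). Its relative ATK3 is 83.1% identical over 2268 aligned bases, so reads that match both could be split between them.

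**Figure D2:**
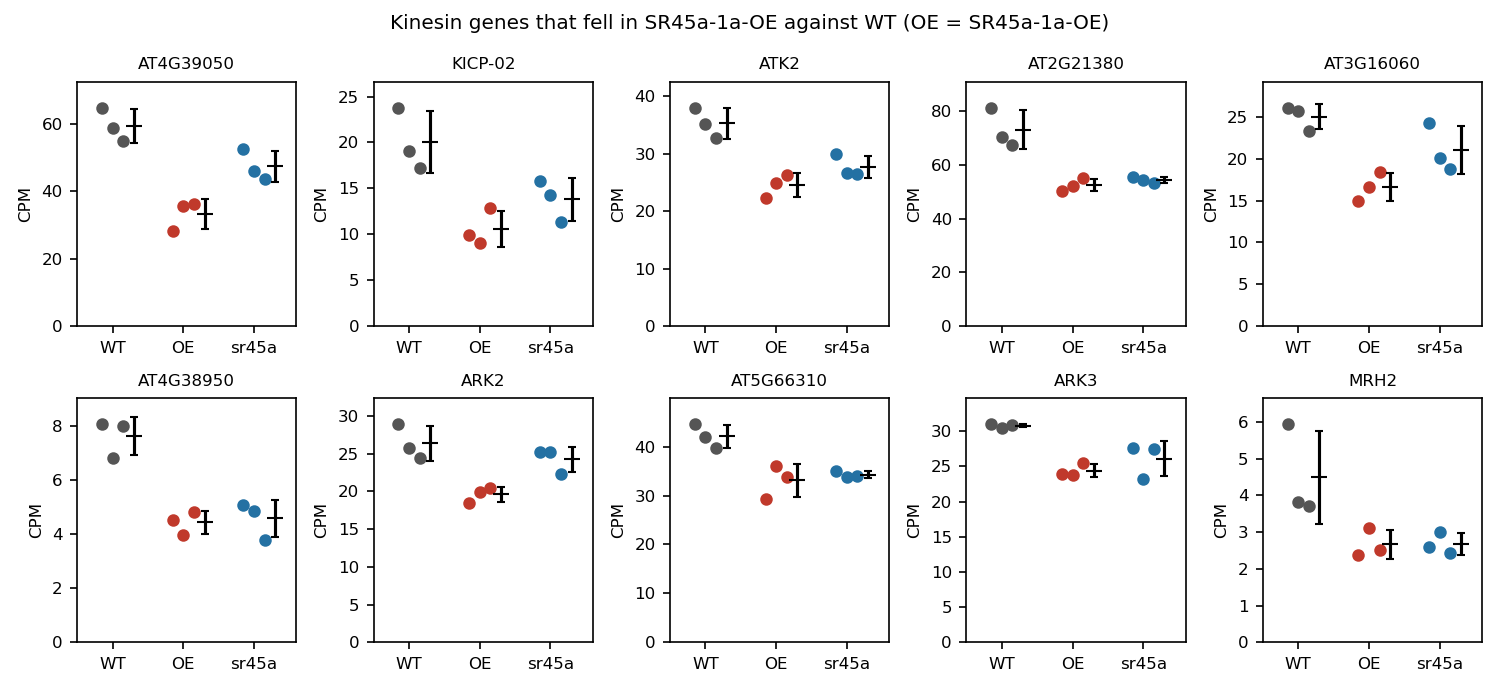
CPM (vertical axis, from 0) of the 10 kinesin genes that fell in SR45a-1a-OE, in each library of WT (grey), SR45a-1a-OE (red, marked OE) and sr45a (blue); the black bar beside each group is the mean with its SD (n = 3). In all 10 the SR45a-1a-OE libraries lie below the WT libraries without overlap; for AT4G39050 they lie at 28.2 to 36.3 against 54.8 to 64.9.

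Among the 39 genes, members of the other kinesin families gave no call in SR45a-1a-OE. Over all tested genes of the kinesin family list, 1 of 4 kinesin-5 and 1 of 2 kinesin-8 genes fell, where 8.59% of all genes fell. Of the 5 kinesin-12 members, the family of the phragmoplast and division plane, none passed, and their log2 fold changes ran from -0.99 to 0.07. POK1, which helps to place the division plane, was the most abundant of them at 2.79 FPKM (0.07, adjusted p = 0.798), and AT3G20150 the least abundant at 0.151 FPKM (-0.78, adjusted p = 0.410). KAC1, a kinesin-14 that acts in chloroplast movement, read 53.0, 48.1 and 40.2 CPM in WT and 44.3, 47.8 and 46.3 CPM in SR45a-1a-OE, which overlapped (-0.03, adjusted p = 0.878). AT2G22610, the scarcest kinesin-14, had the largest fitted drop of any member, -1.41 ± 0.49, but did not pass (adjusted p = 0.0735). The kinesin-10 gene AT5G02370 had the largest fitted rise, 0.83 ± 0.29, and did not pass either (adjusted p = 0.0704); the other kinesin-10 member, AT5G23910, was at -0.04. The kinesin-1 gene AT3G63480 (-0.34, adjusted p = 0.132), the kinesin-5 gene AT2G37420 (-0.36, adjusted p = 0.271) and the kinesin-8 gene AT1G18550 (-0.79, adjusted p = 0.0645) had negative values short of the threshold.

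These calls varied with the libraries used. With all libraries 10 members and 3084 of 20103 genes passed. Leaving out WT replicate 1 left 6 members (1410 of 20324 genes), and leaving out WT replicate 2 left 5 (1060 of 20342 genes). Leaving out SR45a-1a-OE replicate 1 left 5 members (975 of 20327 genes). Without the 2 libraries that stood apart, 15 members passed, 14 of them lower, where 4524 of 20271 genes passed. AT4G39050, AT2G21380, AT4G38950, KICP-02 and ATK2 passed under all 16 alternatives tried, and MRH2 and AT5G66310 under 7 of 16.

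Transcript length moved with the result. The median annotated length of the longest transcript was 3507 bases for the kinesin genes and 1727 for all genes tested. In SR45a-1a-OE against WT, the median log2 fold change of all genes was 0.12 for transcripts under 1 kb and -0.15 for those of 4 kb or more; in sr45a against WT it was 0.12 and -0.20. For transcripts of 3 to 4 kb, 7 of 16 kinesin genes fell in SR45a-1a-OE, against 14.9% of all genes of that length, and the kinesin median was -0.42 against -0.11. At 4 kb or more, 1 of 12 kinesin genes fell, against 13.2% of all genes of that length, with medians of -0.30 and -0.15. With each library's length trend entered as an offset, 8 of 39 kinesin genes passed in SR45a-1a-OE, all lower. In that fit 3789 of all 20103 genes passed in either direction, against 3084 in the main fit. ARK3 and AT5G66310 were lost, and the kinesin median was -0.22.

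**Figure D3:**
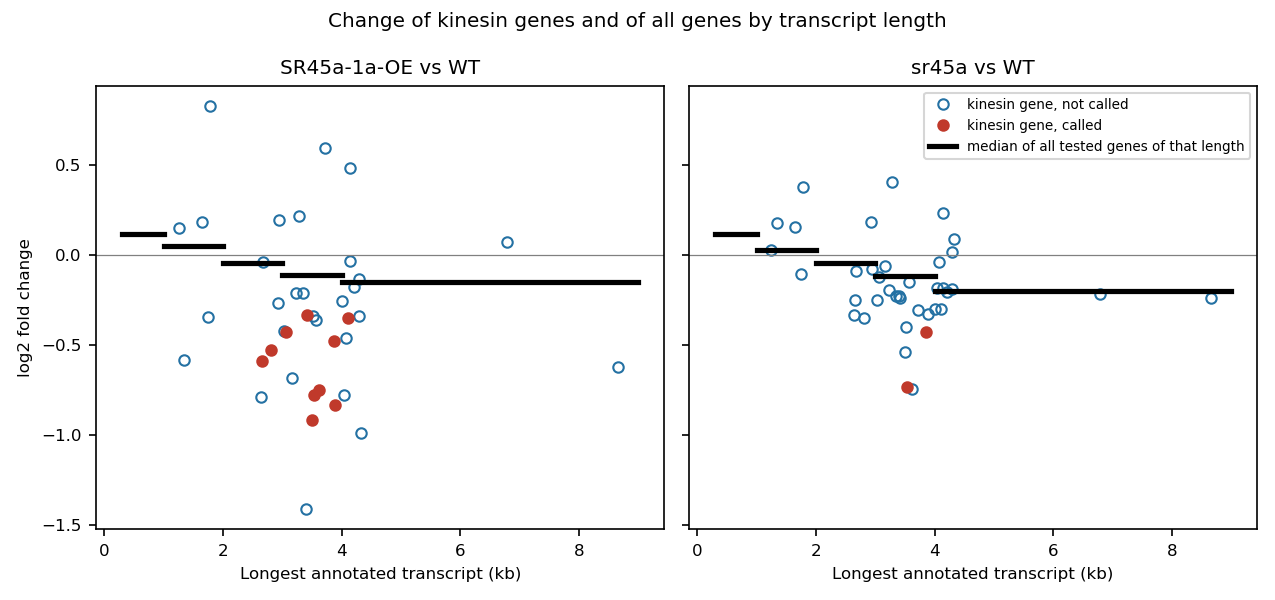
Log2 fold change (vertical axis) of each of the 39 kinesin genes against the length of its longest annotated transcript in kb (horizontal axis), for SR45a-1a-OE against WT and sr45a against WT; red points passed the test and black bars are medians of all tested genes in 5 length classes. Black bars step down with length in both panels, from 0.12 to -0.15 and from 0.12 to -0.20. The red points of SR45a-1a-OE were picked for their fall, so their place below the bars is no separate result. Over called and uncalled kinesin genes in SR45a-1a-OE, the median was -0.42 at 3 to 4 kb (bar at -0.11). At 4 kb or more it was -0.30 (bar at -0.15).

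Comparing the sr45a mutant with WT asks what loss of SR45a does under the same heat. Only 2 kinesin genes fell and 0 rose, where 0.761% of all genes fell, 0.861% rose and 1.62% passed in either direction. Both were kinesin-7 genes: AT2G21380 changed by -0.42 ± 0.09 (adjusted p = 0.0490) and AT4G38950 by -0.73 ± 0.16 (adjusted p = 0.0486). The log2 fold change was below 0 for 30 of 39 members, with a median of -0.19, and for 10067 of all 20103 genes tested. For transcripts of 3 to 4 kb it was below 0 for 15 of 16 kinesin genes and 73.6% of all genes. At 4 kb or more it was below 0 for 9 of 12 kinesin genes and 86.4% of all genes. The sr45a libraries lay below WT without overlap for 12 members (12.8% of all genes), and above WT without overlap for 1 member (11.3% of all genes). MRH2 was at -0.75 ± 0.23 (adjusted p = 0.138) and KICP-02 at -0.54 ± 0.17 (adjusted p = 0.159). All 4 root markers had a log2 fold change below 0 in sr45a, with a median of -0.61; 2 of them fell, and their part in the MRH2 value was not tested.

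Both sr45a calls lay close to the threshold. Neither passed in any of the 6 fits that left out a single WT or sr45a library, and with the length trend as an offset neither passed and the kinesin median was -0.03. This comparison uses the same WT libraries as that of SR45a-1a-OE, so the direction of a gene in one is not independent of the other.

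The direct comparison of SR45a-1a-OE with sr45a uses no WT library for its difference. Of the 39 kinesin genes 1 fell, AT4G39050, by 0.51 on the log2 scale (SE 0.12, adjusted p = 0.0294). Over all genes 4.45% fell, 2.81% rose and 7.26% passed in either direction. The kinesin median was -0.15, against 0.01 for all genes tested. The kinesin count was 0 without SR45a-1a-OE replicate 1, sr45a replicate 1 or sr45a replicate 2, where 300, 270 and 417 genes passed over all genes. It rose to 2 without SR45a-1a-OE replicate 2 and to 3 without SR45a-1a-OE replicate 3, where 967 and 2653 genes passed. Without both libraries that stood apart it was 6, of which 5 were lower and 1 was higher, where 4160 of 20271 genes passed.

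Microtubule genes were set beside the motors, with 15.3% of all genes passing in SR45a-1a-OE against WT. Tubulins, the subunits of the track, fell in 9 of 17 cases and rose in 0, with a list median of -0.50; TUB7 changed by -0.80, TUA4 by -0.71 and TUA3 by -0.54. Without SR45a-1a-OE replicate 1 the tubulin calls were 4, and without WT replicate 2 they were 5. Of 19 microtubule-associated proteins 3 fell and 2 rose (median -0.19): MAP65-1, a microtubule bundler, changed by -0.62, MAP70-2 by -0.53, and EB1C, a plus-end binding protein, by 1.11. Calls among these proteins dropped to 1 when SR45a-1a-OE replicate 1 was left out, to 2 when WT replicate 1 was, and to 3 when WT replicate 2 or WT replicate 3 was. In sr45a against WT, 0 of 17 tubulins passed with edgeR, 1 had an unadjusted p under 0.05, and DESeq2 called 0; the list median was -0.03. In SR45a-1a-OE against sr45a 7 tubulins fell and 0 rose, with a list median of -0.43, where 4.45% of all genes fell and 2.81% rose. That count of tubulins was 0 without SR45a-1a-OE replicate 1 or sr45a replicate 1, 2 without sr45a replicate 2, and 4 without SR45a-1a-OE replicate 2.

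Genes of cell division moved in both directions against WT. Of 18 G2/M genes tested in SR45a-1a-OE against WT, 4 rose and 2 fell, with a list median of 0.14. Over all genes 6.76% rose and 8.59% fell in that comparison. CDKB1;2, a mitotic kinase, rose by 1.77; CYCA1;1, a cyclin, fell by 2.67 and MYB3R1, a MYB factor that binds promoters of G2/M genes, fell by 0.68 on the log2 scale. The levels of CDKB1;2 and CYCA1;1 were low. CDKB1;2 averaged 0.499 CPM in WT and 1.71 CPM in SR45a-1a-OE, and CYCA1;1 1.04 CPM and 0.157 CPM. Across the 16 alternatives the change of CYCA1;1 ran from -2.80 to -0.53, and it passed in 12. Among 9 S-phase genes 2 rose, TSO2, a ribonucleotide reductase subunit, by 0.64 and PCNA1, the replication clamp, by 0.55. In sr45a against WT the cytokinesis syntaxin gene KN fell by 2.48 and was the sole G2/M gene of 18 to pass, while PCNA1 (0.75) and TSO2 (0.69) rose. Over all genes 0.761% fell and 0.861% rose in that comparison. KN was low too, with means of 1.69 CPM in WT, 0.298 CPM in sr45a and 3.46 CPM in SR45a-1a-OE. The 6 G2/M calls in SR45a-1a-OE became 2 without WT replicate 2 or SR45a-1a-OE replicate 1, and 3 without WT replicate 1, WT replicate 3 or SR45a-1a-OE replicate 2. The 2 S-phase calls became 1 without WT replicate 1 or SR45a-1a-OE replicate 1 in SR45a-1a-OE. In sr45a they became 1 without WT replicate 2 or sr45a replicate 3, and 0 without any other single library.

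Between the altered genotypes, where 7.26% of all genes passed, the S-phase genes were lower in SR45a-1a-OE. All 9 had a log2 fold change below 0 against sr45a, with a list median of -0.55. Of these 3 fell and 0 rose: MCM5, a subunit of the replicative helicase, changed by -1.10, CDT1A, a replication licensing factor, by -1.44, and PCNA2, a replication clamp, by -0.55. Among the 18 G2/M genes KN rose by 3.51, while CYCA1;1 changed by -2.71 and MYB3R1 by -0.41, with a list median of -0.12. The KN and CYCA1;1 values rest on low levels, as given above. The 3 S-phase calls became 0 when SR45a-1a-OE replicate 1, sr45a replicate 1 or sr45a replicate 2 was left out. The 3 G2/M calls became 1 when any of these or SR45a-1a-OE replicate 2 was left out.

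**Figure D4:**
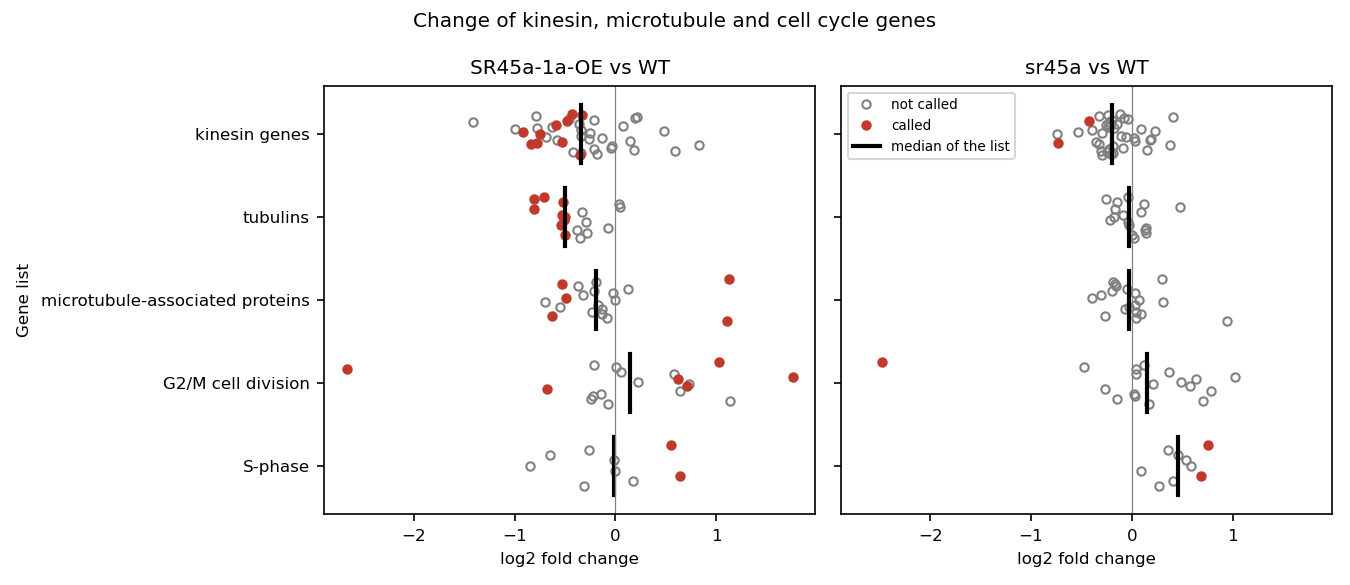
Log2 fold change (horizontal axis) of the genes of 5 lists (rows) in SR45a-1a-OE against WT and in sr45a against WT; each point is a gene, red where it passed the test, and the black bar is the list median. Kinesin and tubulin medians lie at -0.34 and -0.50 in SR45a-1a-OE and at -0.19 and -0.03 in sr45a.

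Sequence before the gene start was read for all members. The letters AACGG, the core of the element bound by MYB3R factors, occurred on either strand within 250 bases upstream of 18 of 39 kinesin genes (46.2%), against 20.6% of 27443 protein-coding genes. Of the 10 members that fell in SR45a-1a-OE, 4 held it, and of 22 G2/M genes 12 did. The letters GAANNTTC, a minimal heat shock element, occurred in 0 of 39 kinesin windows and in 9.55% of all windows. Neither motif contains the other. The windows of the pair with the smallest adjusted p in SR45a-1a-OE and of ARK2 and ARK3 are shown because they hold between 0 and 3 copies; capitals mark AACGG or its complement CCGTT, and the sequence is that of TAIR10.1 on the strand of the gene.
AT4G39050, chr4:18192825-18193074, plus strand: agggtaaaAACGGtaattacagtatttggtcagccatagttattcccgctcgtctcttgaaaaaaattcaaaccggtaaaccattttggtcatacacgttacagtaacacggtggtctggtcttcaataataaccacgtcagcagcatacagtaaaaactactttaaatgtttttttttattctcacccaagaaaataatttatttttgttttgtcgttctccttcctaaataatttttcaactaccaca
KICP-02, chr3:18628915-18629164, minus strand: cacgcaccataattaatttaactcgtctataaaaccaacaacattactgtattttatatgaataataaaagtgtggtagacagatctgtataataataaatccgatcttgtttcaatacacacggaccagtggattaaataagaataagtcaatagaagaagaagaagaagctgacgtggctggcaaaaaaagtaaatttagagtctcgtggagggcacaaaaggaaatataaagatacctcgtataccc
ARK2, chr1:325066-325315, plus strand: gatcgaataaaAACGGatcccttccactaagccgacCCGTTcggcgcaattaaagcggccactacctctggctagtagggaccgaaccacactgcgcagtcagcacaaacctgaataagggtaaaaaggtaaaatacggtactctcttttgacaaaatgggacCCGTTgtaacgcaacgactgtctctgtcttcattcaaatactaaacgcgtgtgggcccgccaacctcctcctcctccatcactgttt
ARK3, chr1:4238796-4239045, minus strand: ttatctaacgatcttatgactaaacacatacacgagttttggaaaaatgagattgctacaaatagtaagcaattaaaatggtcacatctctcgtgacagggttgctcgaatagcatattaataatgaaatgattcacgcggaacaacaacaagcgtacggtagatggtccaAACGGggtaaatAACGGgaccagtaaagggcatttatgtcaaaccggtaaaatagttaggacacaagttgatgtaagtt

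Because SR45a is a splicing factor, the shares of the transcripts within each gene were tested too. Of 22 kinesin genes with at least 2 transcripts that could be tested, 0 passed in any of the 3 comparisons (edgeR, adjusted Simes p under 0.05; 2, 0 and 3 at an unadjusted p under 0.05), where 0.342%, 0.291% and 0.342% of 7893 genes passed in SR45a-1a-OE against WT, sr45a against WT and SR45a-1a-OE against sr45a. Smallest was the kinesin-7 gene AT3G51150 in SR45a-1a-OE against WT (unadjusted p = 0.00169, adjusted p = 0.190), and it is described here as chosen after its values were seen. Its transcript AT3G51150.4 made up 1.37%, 1.69% and 1.61% of the gene's annotated estimates in WT and 1.92%, 7.38% and 1.69% in sr45a, but 34.8%, 34.0% and 56.3% in SR45a-1a-OE. SR45a-1a-OE was above both other genotypes without overlap, although the test over all genes was not passed. The estimates behind these shares were 7, 6 and 6 in WT, and 9, 24 and 6 in sr45a, but 149, 177 and 252 in SR45a-1a-OE. At the level of the single transcript the log2 fold change in SR45a-1a-OE was 4.94 ± 0.67 against WT (adjusted p = 0.0806) and 3.80 ± 0.63 against sr45a (adjusted p = 0.132); over all 35975 transcripts tested, 0.0389% passed in the former comparison, 0.0667% in the latter and 0.0556% in sr45a against WT. Counts of the whole gene overlapped between WT and SR45a-1a-OE, at 22.2, 24.8 and 20.4 CPM against 17.1, 17.5 and 21.9 CPM (log2 fold change -0.25, adjusted p = 0.172).

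**Figure D5:**
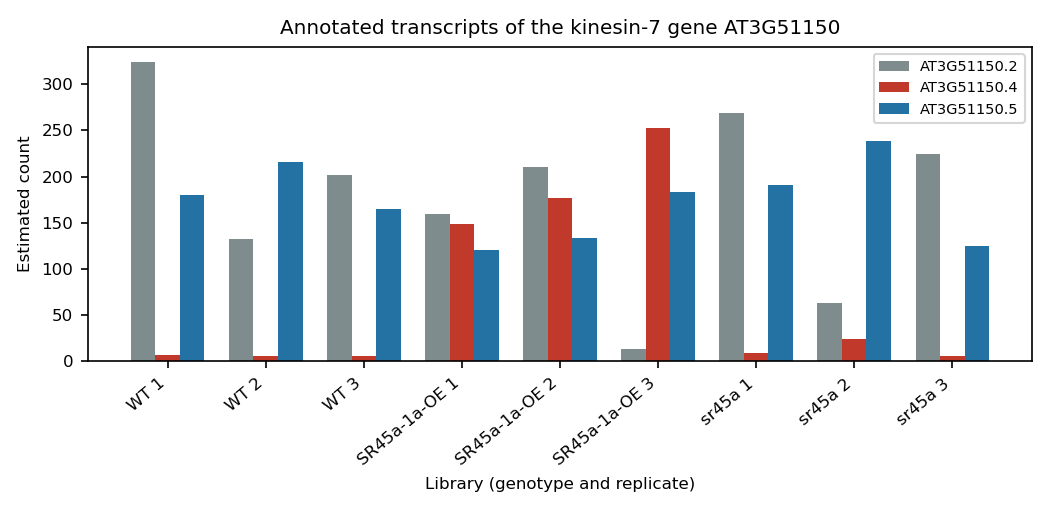
Estimated counts (vertical axis, from 0) of 3 annotated transcripts of AT3G51150 in each of the 9 libraries (horizontal axis). AT3G51150.4 (red) lies at 149 to 252 in SR45a-1a-OE and at 6 to 24 in the other libraries, while AT3G51150.2 (grey) ranges from 13 to 324.

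The annotation places the start of AT3G51150.4 inside the gene. On TAIR10.1, AT3G51150.2 runs from chr3:19000677 to 19006807 on the plus strand, and AT3G51150.4 starts 1090 bases downstream, at chr3:19001767, within the intron that AT3G51150.2 has between positions 19001561 and 19001978. Its first exon ends at 19002210, and it keeps the exon with the P-loop codons. AT3G51150.5 starts further downstream, at 19002798, and lacks that exon. The intron stretch between the upstream exon and the internal start, chr3:19001562-19001766 on the plus strand, is shown because this start marks the transcript whose estimates differ; it holds neither AACGG nor GAANNTTC.
AT3G51150 intron stretch: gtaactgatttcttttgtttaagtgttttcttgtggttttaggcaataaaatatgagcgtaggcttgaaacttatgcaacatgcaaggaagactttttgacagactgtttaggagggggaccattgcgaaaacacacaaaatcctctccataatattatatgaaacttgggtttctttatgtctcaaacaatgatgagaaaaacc

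Transcript estimates are looser than gene counts. They total 69441431 to 84634157 per library, more than the gene counts, and a further 21884 assembled transcripts carry no locus, so reads assigned to those are missing from the shares. Summed over the 9 libraries, the annotated estimates of AT3G51150 came to 3783 against 3782 gene counts, whereas the median ratio of estimates to gene counts was 3.74 over all loci and 3.64 over the kinesin genes. AT3G51150.2 read 13 in SR45a-1a-OE replicate 3 and 210 in replicate 2. A share resting on such estimates therefore describes the authors' assignment of reads among annotated transcripts.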

How the data were processed

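Per the labels' protocols, paired reads of 150 bases were sequenced from total RNA of whole seedlings and filtered with fastp to a minimum length of 36 bases; the aligner, counter, strand setting and build are not given in the sources used here. The authors deposited whole-number counts per gene, FPKM per gene and estimated counts per transcript, which are rounded before testing. FPKM values, as deposited, were used for levels per length and in 2 alternative tests with limma.

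Gene counts were filtered with filterByExpr (minimum count 10, minimum total 15), scaled by TMM and tested with edgeR 4.0.16 (quasi-likelihood, R 4.3.3) with 1 coefficient per genotype over all 9 libraries; adjusted p-values are Benjamini-Hochberg over 20103 genes at 0.05. Transcript usage was tested with edgeR's diffSpliceDGE. CPM are TMM-scaled. DESeq2 1.42.0 and limma 3.58.1 gave alternatives. The fit was also run on counts simulated from WT means. Those counts held no library that stands apart and no length trend, so that run does not bear on these features. Replicates differed from each other by more than sampling noise (chi-square per gene 5.34 or more).

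Members named singly are those past the threshold in any comparison, the 5 with the highest mean FPKM and the highest and lowest of each family; of each other list, the 3 called genes with the smallest p, or else the 2 most abundant. Members and gene lists were chosen with earlier results of these data known, and 1 further matching locus is not reported here. Members on the opposite strand of an overlapping annotated gene number 13, and without a stated strand setting such reads cannot be told apart.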

Additional observations from a re-analysis of the deposited data

How the results depend on the processing

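For the count of kinesin genes in SR45a-1a-OE against WT (10), the other normalization, filter, test and pseudocount settings gave 8 to 12, leaving out a single library gave 5 to 14, and the replicate block gave 6; the length-trend offset gave 8, and leaving out the 2 libraries that stood apart gave 15. For sr45a against WT (2), DESeq2 gave 2; DESeq2 size factors in edgeR, no filter and fitting only the 6 libraries compared gave 1 each; the 1 CPM filter, both limma fits, the replicate block, leaving out the 2 libraries that stood apart, the length-trend offset and leaving out a single library (0 to 0) gave 0. For SR45a-1a-OE against sr45a (1), the replicate block and the 6-library fit gave 0, leaving out a single library 0 to 3, and leaving out the 2 libraries that stood apart 6. The length-trend offset and the fit without those 2 libraries were added after seeing the data.

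Over all genes, the counts for these comparisons were 3084, 326 and 1459. The replicate block gave 1842, 193 and 575, and leaving out a single library 975 to 3944, 106 to 215 and 270 to 2653. The 6-library fit gave 532 in sr45a against WT and 557 in SR45a-1a-OE against sr45a, DESeq2 gave 704 in sr45a against WT, and in SR45a-1a-OE against sr45a leaving out the libraries that stood apart gave 4160 and the length-trend offset 2283. Replicate numbers did not pair the libraries: correlations of same-numbered deviations ran from -0.33 to 0.19, so the block rests on a shared number only. Usage counts of kinesin genes were 0 in every fit run, the replicate block included.

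Signs that turned belong to values near 0 or to scarce genes, none of which passed the test. With the length-trend offset, sr45a against WT gave 0.00048 for AT1G52320, 0.054 for POK1, -0.023 for AT4G26410 and -0.058 for SPR1, and SR45a-1a-OE against WT gave 0.12 for KAC1 and 0.042 for AT5G23910. Without the 2 libraries that stood apart, sr45a against WT gave 0.21 for AT3G20150 and 0.061 for TUA4, and SR45a-1a-OE against sr45a gave 0.066 for AT2G21300, -0.065 for AT3G51150 and 0.11 for CLASP. With limma on log2(FPKM + 1) and log2(FPKM + 0.1), SR45a-1a-OE against sr45a gave -0.0053 and -0.0095 for AT5G23910 and -0.018 and -0.024 for AT3G51150. Leaving out a single library, ranges that cross 0 were, in SR45a-1a-OE against WT, -0.075 to 0.26 for POK1, -0.13 to 0.059 for KAC1 and -0.088 to 0.045 for AT5G23910; in sr45a against WT, -0.22 to 0.050 for AT1G52320, -0.97 to 0.21 for AT3G20150, -0.061 to 0.097 for AT4G26410, -0.59 to 0.20 for AT5G42490, -0.17 to 0.061 for TUA4 and -0.028 to 0.084 for SPR1; and in SR45a-1a-OE against sr45a, -0.13 to 0.065 for AT2G21300, -1.60 to 0.19 for AT3G20150, -0.13 to 0.084 for MRH2, -0.16 to 0.040 for AT4G38950, -0.015 to 0.10 for AT5G23910, -0.11 to 0.031 for AT5G66310, -0.078 to 0.12 for AT3G51150, -0.12 to 0.076 for CLASP and -0.11 to 0.017 for SPR1. The cause was not tested. Counting depth limits the scarcest members most: AT2G22610 had 0.0497 CPM in its lowest library.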

Other observations

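A further 27 genes of the kinesin family list are not among the 39 described above, AT4G24170 because of its low count and the others because the deposited table describes them in other words. Of the 25 of them that were tested, 6 fell and 0 rose in SR45a-1a-OE against WT (8.59% of all genes fell), 0 passed in sr45a against WT (5 at an unadjusted p under 0.05; 0.761% of all genes fell), and 3 fell in SR45a-1a-OE against sr45a (4.45% of all genes fell). The median log2 fold changes of these 25 genes were -0.42, -0.18 and -0.25. They include 3 genes listed as kinesin light chain-related, not as motors. Of those 3, 1 fell in SR45a-1a-OE against WT, 0 passed in sr45a against WT and 1 fell in SR45a-1a-OE against sr45a.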
